A study of Homo sapiens with 6 samples.

Results

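Of the 58735 genes in the count table, 41 were chosen by name as glycolysis and hypoxia response genes. They are 17 glycolytic enzymes, the 2 PFKFB enzymes, 3 glucose and lactate transporters, 6 genes of the hypoxia-inducible factor (HIF) subunits and their oxygen sensing, and 13 other HIF targets. The 22 genes of the first 3 classes are called glycolysis genes here and the other 19 HIF genes. All 41 names matched 1 row each, and 40 passed the filter on low counts. The gene left out was LDHB. The libraries came from HuCCT1, an established human cholangiocarcinoma (bile duct cancer) line. RNA was sequenced from 3 libraries of cells given an siRNA against C1QBP (siC1QBP) and 3 libraries of cells given a control siRNA (siNC). The label for siNC cells reads wt. C1QBP encodes a protein found mainly in the mitochondrial matrix, and the study concerns its part in proliferation of these cells. The sources used here do not give the siRNA sequence, its dose, the time after transfection, or the oxygen and glucose in the medium.

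Glycolysis splits glucose into pyruvate in the cytosol, and lactate dehydrogenase turns pyruvate into lactate, which monocarboxylate transporters carry out of the cell. When oxygen is ample, prolyl hydroxylases of the EGLN family mark HIF alpha subunits, and the VHL protein has them degraded. When oxygen is short, HIF1A or EPAS1 pairs with ARNT and switches on genes for glucose uptake, glycolysis, acid export and blood vessel growth. Cancer cells often run glycolysis with oxygen present, and several glycolytic genes are also targets of MYC.

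Total counts were 17122252 to 20416243 per library. C1QBP stood at 57.6 to 60.0 CPM (counts relative to the TMM-scaled library total) in siC1QBP libraries and 175 to 185 CPM in siNC (log2 fold change -1.61, standard error (SE) 0.05, edgeR adjusted p = 1.39e-12). Across all 15530 tested genes, 14.3% were called at an adjusted p under 0.05, 7.84% lower and 6.47% higher in siC1QBP. Biliary epithelial markers KRT7, KRT19, KRT8, KRT18, EPCAM, SOX9 and CDH1 summed to 7744 to 8117 CPM in siC1QBP libraries and 8553 to 9044 CPM in siNC. Of these, KRT7 and KRT19 fell (log2 fold change -0.26 and -0.19, edgeR adjusted p = 0.000214 and 0.00862). The other 5 did not pass, and SOX9 and CDH1 had every siC1QBP library above every siNC library (log2 fold change 0.14 each, edgeR adjusted p = 0.122 and 0.0692). Hepatocyte and leukocyte markers summed to at most 0.173 and 0.445 CPM, endothelial markers to 2.47 to 3.95 CPM, and fibroblast markers to 8.18 to 12.6 CPM. Replicate 1 of siC1QBP stood apart from the others of its group, by a chi-square over genes above a minimum count. Divided by its degrees of freedom, this chi-square was 6.66 and 6.77 against replicates 2 and 3, and 2.09 between those. For siNC replicate 1 it was 3.67 and 3.40 against siNC replicates 2 and 3, and 2.13 between those. Mitochondrially encoded genes took 4.20% to 4.80% of counts in siC1QBP and 3.66% to 3.88% in siNC. With those genes left out, 13 glycolysis genes were lower and 0 higher. The part of the marker levels in the results was not tested. Why siC1QBP replicate 1 stood apart was not tested either, and fits without it are given below. In bulk RNA, fewer cells with an mRNA and less of it per cell cannot be told apart.

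HIF binds DNA at a core of ACGTG or GCGTG. Both words were searched on both strands (CACGT and CACGC on the other strand) in the 250 bases before the RefSeq start site nearest to the start of the principal transcript. A palindrome CACGTG, the E-box that MYC and other factors bind, counts as a match on both strands. That start lay 2757 bases from the principal start for EGLN1, inside the GENCODE gene, 1658 bases for PGAM1, and at most 510 bases for the others. RefSeq windows (GRCh38.p14) matched 36 of the 41 genes, all but SLC16A1, VHL, VEGFA, NDRG1 and BNIP3L. Stretches of 30 bases are shown for the genes that both passed the expression test and held a match, to show how the core sits in each. They read 5′ to 3′ on the gene's strand, with the core in capitals.
HK2 (chr2:74834063-74834092, plus strand): agccaatggGCGTGcgCACGTcactgatcc
GPI (chr19:34364817-34364846, plus strand): aacactgcctgtaACGTGgaaggtgttcga
PGK1 (chrX:78104029-78104058, plus strand): ggttcgcgGCGTGccggACGTGacaaacgg
ENO1 (chr1:8878836-8878865, minus strand): tcacccccctttcCACGCtactgcagccgt
ENO2 (chr12:6914449-6914478, plus strand): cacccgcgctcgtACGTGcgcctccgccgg
LDHA (chr11:18396215-18396244, plus strand): taatgcgcatgcgCACGCgcacaagttcct
PFKFB3 (chr10:6202812-6202841, plus strand): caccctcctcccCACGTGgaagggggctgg
EGLN1 (chr1:231422288-231422317, minus strand): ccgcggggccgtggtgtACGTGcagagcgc
DDIT4 (chr10:72273692-72273721, plus strand): ttccagaaaggggGCGTGgcggtgggtcgg
KDM3A (chr2:86441332-86441361, plus strand): tccgggaggctgtGCGTGtcttgtgagagc
P4HA1 (chr10:73096936-73096965, minus strand): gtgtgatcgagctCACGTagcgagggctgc
CA12 (chr15:63382064-63382093, minus strand): ggcggatctcaccCACGCctgccagcagct

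The glycolysis genes that fell in siC1QBP cells included the glucose transporter SLC2A1, enzymes from HK2 to LDHA, and the lactate exporter SLC16A3. Of the 21 that were tested, 12 fell, 0 rose and 9 did not pass, beside 7.84% of all tested genes called lower. In 15 of 21 every siC1QBP library lay below every siNC library, against 16.6% of all tested genes. The median log2 fold change was -0.23, beside 0.00 over all genes. The changes were modest, and HK2 and SLC16A3 had the lowest values. With DESeq2 and limma-voom 13 fell and 0 rose, and 0 were higher in edgeR at an unadjusted p under 0.05. Without siC1QBP replicate 1 the number that fell was 16.

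**Figure D1:**
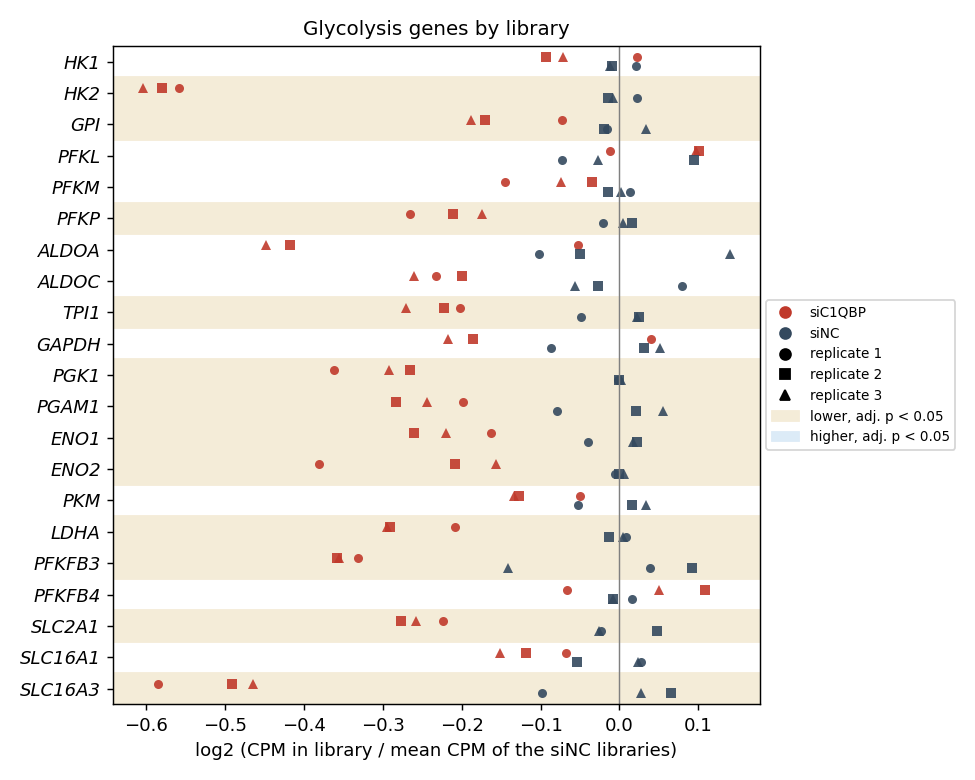
CPM of each tested glycolysis gene in each library, as log2 ratio to the mean of the 3 siNC libraries (x axis), with genes on the y axis and shading for genes that passed the test. HK2 and SLC16A3 lie farthest left, while siC1QBP replicate 1 (red circles) lies near the siNC libraries for GAPDH, PKM and ALDOA.

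Glucose enters through SLC2A1 (GLUT1), the widespread glucose transporter (ENSG00000117394, hg38 chromosome 1, 42925375 to 42959176). SLC2A1 was measured at 307, 296 and 299.8 CPM in siC1QBP replicates 1, 2 and 3 and at 353, 371 and 352 CPM in siNC replicates. The groups did not overlap, and the level was 83.9% of control (log2 fold change -0.25, SE 0.04, edgeR adjusted p = 0.000781).

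Hexokinases trap glucose in the cell as glucose 6-phosphate. HK2 (ENSG00000159399, chromosome 2, 74833981 to 74893359), the isoform induced in many tumours and by hypoxia, was measured at 42.2, 41.6 and 40.9 CPM after siC1QBP and 63.2, 61.6 and 61.8 CPM after siNC. Replicates within a group were close together, and the groups were far apart. The level was 66.9% of control (95% interval 61.6% to 72.6%, log2 fold change -0.58, SE 0.06, edgeR adjusted p = 6.08e-06). HK1, the housekeeping isoform, was measured at 238 ± 10.2 against 246 ± 3.10 CPM (SD, n = 3) and did not pass (log2 fold change -0.05, 95% interval -0.14 to 0.05, edgeR adjusted p = 0.530). Its siC1QBP replicate 1, at 249.8 CPM, was the highest of all 6 libraries.

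GPI, which converts glucose 6-phosphate to fructose 6-phosphate, was at 363, 339 and 335 against 378, 377 and 391 CPM and fell (log2 fold change -0.14, SE 0.04, edgeR adjusted p = 0.0358). It did not pass when siC1QBP replicate 2 (0.118) or 3 (0.143) was left out, nor when siNC replicate 2 (0.0966) or 3 (0.172) was. It also failed with library size only (0.0648) or upper-quartile scaling (0.0923) and with a filter of 10 CPM (0.0511; edgeR adjusted p throughout). The phosphofructokinases, which make the committed step, did not move alike. PFKP, the platelet-type isoform, was at 223, 231 and 237 CPM in siC1QBP libraries and 264, 271 and 269 CPM in siNC, and fell by 0.22 (SE 0.04, edgeR adjusted p = 0.00255). PFKM, the muscle-type isoform, was at 63.2 ± 2.42 against 67.0 ± 0.644 CPM (log2 fold change -0.08, SE 0.05, edgeR adjusted p = 0.333). PFKL, the liver-type isoform, was at 83.8 ± 3.68 against 80.2 ± 4.85 CPM (SD, n = 3 each, log2 fold change 0.06, SE 0.06, edgeR adjusted p = 0.515).

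The PFKFB enzymes set the level of fructose 2,6-bisphosphate, the activator of phosphofructokinase. PFKFB3, whose kinase activity prevails, was at 41.3, 40.6 and 40.6 CPM in siC1QBP libraries and 53.4, 55.4 and 47.1 CPM in siNC. The siC1QBP libraries were nearly equal and all below the siNC libraries (log2 fold change -0.35, SE 0.07, edgeR adjusted p = 0.00231). PFKFB4 was at 49.5 ± 3.03 against 48.4 ± 0.477 CPM (SD, n = 3) and did not pass (log2 fold change 0.03, 95% interval -0.10 to 0.16, edgeR adjusted p = 0.772).

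Aldolase splits fructose 1,6-bisphosphate. ALDOA was at 23.6, 18.3 and 18.0 CPM in siC1QBP libraries and 22.8, 23.7 and 27.0 CPM in siNC, so the groups overlapped through siC1QBP replicate 1 (log2 fold change -0.29, SE 0.10, edgeR adjusted p = 0.0676). Without that library the value was -0.43 (edgeR adjusted p = 0.00235). The ALDOA level is uncertain, since 42.3% of its exon bases are shared with the same-strand gene AC093512.2 in GENCODE release 29, and how such reads were counted is not given in the sources used here. Per kilobase, ALDOA stood at 6.26 CPM in siNC against 592 for TPI1 and 1630.0 for GAPDH, the enzymes of the next steps. ALDOC, the brain-type isoform, was lower in every siC1QBP library, at 22.1 ± 0.467 against 26.0 ± 1.29 CPM (SD, n = 3), and just missed the threshold (log2 fold change -0.23, SE 0.08, edgeR adjusted p = 0.0509).

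Among the enzymes that follow, 5 fell by similar amounts. TPI1, which interconverts the triose phosphates, was at 1389, 1370 and 1325 CPM in siC1QBP libraries and 1545, 1626 and 1623 CPM in siNC (log2 fold change -0.23, SE 0.04, edgeR adjusted p = 0.000929). PGK1, which makes the first ATP of the pathway, was at 674, 720 and 707 CPM against 865, 866 and 868 CPM. The siNC libraries were almost identical and PGK1 stood at 80.9% of control (log2 fold change -0.31, SE 0.04, edgeR adjusted p = 0.000105). Phosphoglycerate mutase PGAM1 was at 549 ± 16.2 against 649 ± 31.1 CPM (SD, n = 3) and fell by 0.24. The enolases ENO1, at 2527 ± 86.2 against 2932 ± 69.5 CPM, and ENO2, the neuronal isoform, at 115 ± 9.18 against 136 ± 0.539 CPM, fell by 0.21 and 0.25 (edgeR adjusted p = 0.00156 and 0.00615). In ENO2 the siC1QBP replicate 1, at 105 CPM, was the lowest.

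GAPDH and PKM, among the most abundant members, did not pass. GAPDH, which oxidises glyceraldehyde 3-phosphate, was at 4994, 4274 and 4179 CPM in siC1QBP libraries and 4575, 4967 and 5034 CPM in siNC. Its siC1QBP replicate 1 lay within the siNC range while replicates 2 and 3 lay below it (log2 fold change -0.12, SE 0.06, edgeR adjusted p = 0.183). Without that replicate GAPDH was at -0.20 (edgeR adjusted p = 5.85e-05). PKM, the pyruvate kinase whose M1 and M2 forms a gene count cannot separate, was at 3965, 3759 and 3743 against 3961, 4153 and 4205 CPM (log2 fold change -0.10, SE 0.04, edgeR adjusted p = 0.0852). It passed without siC1QBP replicate 1 (0.00104) or siNC replicate 1 (0.0359, edgeR adjusted p), and with DESeq2 (adjusted p = 0.0318) and limma-voom (adjusted p = 0.0437). The 62 named GAPDH pseudogenes held 0.260% as many counts as GAPDH, and the 5 of PKM held 1 count. Whether reads that match both a gene and its copies were counted is not given in the sources used here. These counts therefore cannot show how many reads were lost to copies.

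Lactate dehydrogenase was represented by LDHA alone. LDHA was at 1725, 1629 and 1625 CPM in siC1QBP libraries and 2005, 1974 and 1999.6 CPM in siNC, and the groups did not overlap (83.3% of control, log2 fold change -0.26, SE 0.04, edgeR adjusted p = 0.000261). LDHB, the isoform that favours lactate oxidation, had 2 counts in all, both in siNC replicate 2, and 0 in the other 5 libraries. A count of 0 allows up to 0.147 to 0.175 CPM in a library, for counting error only. Part of the LDHB model, 33.4% of its exon bases, is shared with the same-strand gene AC010197.2, which had 0 counts. Lactate leaves through SLC16A3 (MCT4), the high-capacity exporter (ENSG00000141526, chromosome 17, 82228397 to 82261129). It was at 262, 280 and 285 CPM in siC1QBP libraries and 368, 412 and 401 CPM in siNC, 70.1% of control (log2 fold change -0.51, SE 0.05, edgeR adjusted p = 6.08e-06). SLC16A1 (MCT1), which carries lactate both ways, was at 127, 122 and 119 against 135, 128 and 135 CPM and did not pass (log2 fold change -0.11, SE 0.05, edgeR adjusted p = 0.125), but did without siC1QBP replicate 1 (0.0409).

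Summed over the 17 enzymes, glycolytic mRNAs took 1.71%, 1.61% and 1.60% of all counts in siC1QBP and 1.76%, 1.83% and 1.84% in siNC libraries. The 3 transporters took 0.0705% ± 0.000899 against 0.0876% ± 0.00237 (SD, n = 3). Both sums were lower in every siC1QBP library.

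**Figure D2:**
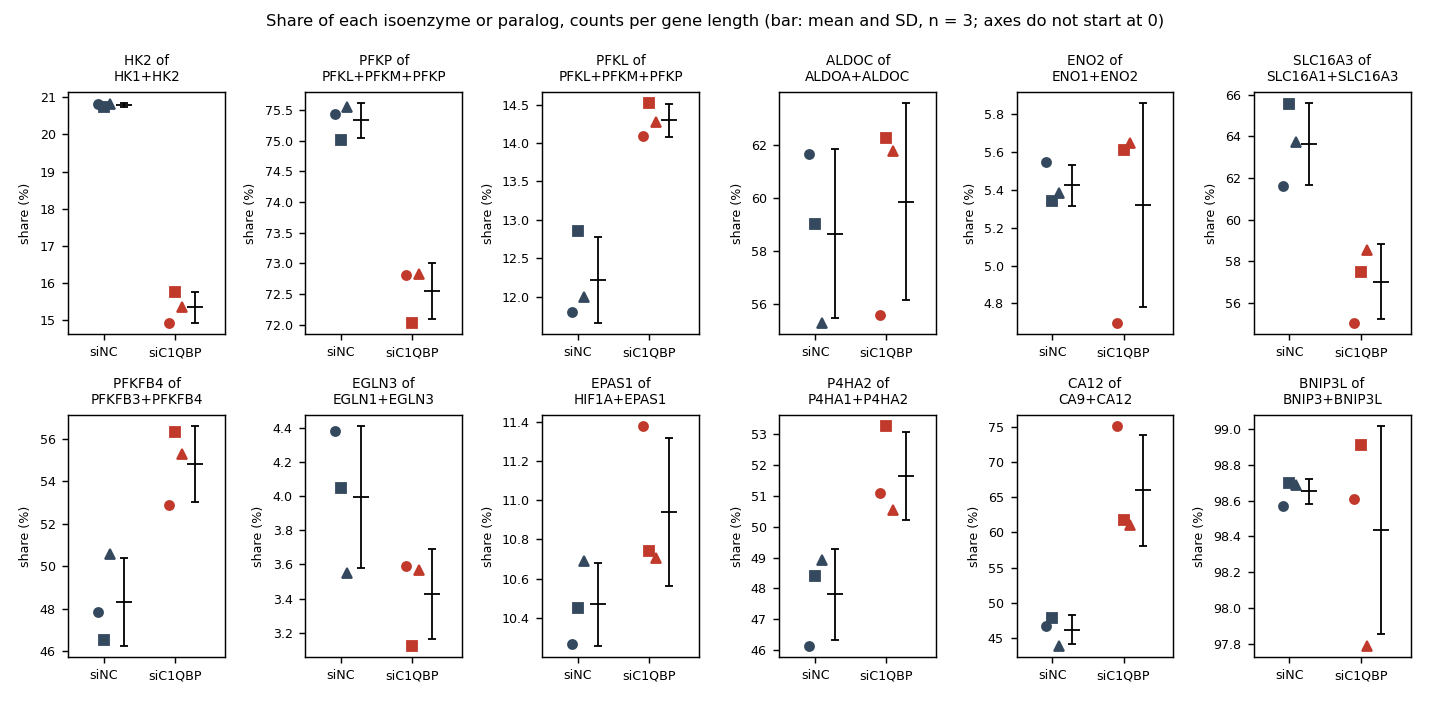
Share of 1 gene in its isoenzyme or paralog family in each library (y axis, percent of counts per gene length; black bars are mean and SD, n = 3), for siNC and siC1QBP (x axis). HK2, PFKP and SLC16A3 took a smaller share in every siC1QBP library, and PFKL, PFKFB4, EPAS1, P4HA2 and CA12 a larger one. The EPAS1 groups nearly touched.

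The balance between isoenzymes was compared as the share of each gene in its family, from counts per gene length. HK2 made up 14.9%, 15.8% and 15.4% of HK1 and HK2 in siC1QBP and 20.8%, 20.7% and 20.8% in siNC libraries. SLC16A3 made up 57.0% ± 1.79 against 63.6% ± 1.96 of SLC16A1 and SLC16A3 (SD, n = 3). PFKFB4 made up 54.8% ± 1.77 against 48.3% ± 2.07 of the PFKFB pair, and was above 50% in siNC replicate 3 as well as in all 3 siC1QBP libraries. PFKP dominated its family in both groups, at 72.6% ± 0.456 against 75.3% ± 0.282, and PFKL took 14.3% ± 0.213 against 12.2% ± 0.557. For each of these 5 shares, and for those of EPAS1, P4HA2 and CA12, the groups did not overlap, and the two-sided exact permutation test gave p = 0.1, the smallest that 3 against 3 allows (0.163 adjusted over the 13 shares). For EPAS1 the groups nearly touched, at 10.70% in siC1QBP replicate 3 and 10.69% in siNC replicate 3. The shares of ALDOC, ENO2, LDHB, EGLN3 and BNIP3L overlapped between groups.

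The HIF genes were mixed. Of 19 tested, 6 fell, 2 rose and 11 did not pass, beside 7.84% lower and 6.47% higher among all tested genes. Every siC1QBP library lay below every siNC library in 9 and above in 2, against 16.6% and 16% of all tested genes. Their median log2 fold change was -0.09. The counts rested on single libraries more than those of the glycolysis genes: 3 fell without siNC replicate 1 or 2, and 1 rose without siC1QBP replicate 1 or any 1 siNC library. The difference between the 2 sets of genes was not tested.

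**Figure D3:**
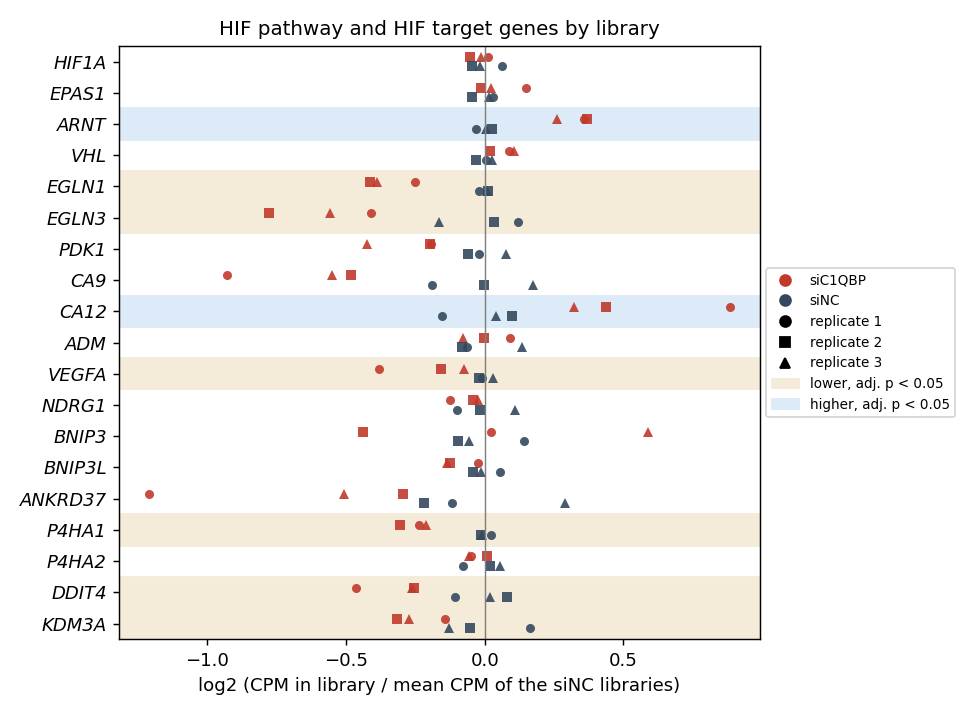
CPM of each HIF gene in each library, as log2 ratio to the mean of the 3 siNC libraries (x axis), with genes on the y axis and shading for genes that passed the test (lower or higher). EGLN1, EGLN3, P4HA1 and DDIT4 lie to the left in every siC1QBP library and ARNT and CA12 to the right, with wide scatter in CA9, BNIP3 and ANKRD37.

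The oxygen-regulated subunits themselves hardly differed. HIF1A was at 524, 499.6 and 514 CPM in siC1QBP libraries and 541, 503 and 513 CPM in siNC (log2 fold change -0.02, 95% interval -0.11 to 0.07, edgeR adjusted p = 0.822), a value whose sign turned with library-size or upper-quartile scaling. EPAS1, which encodes HIF-2 alpha, was at 89.3 ± 5.31 against 86.0 ± 2.43 CPM (SD, n = 3, log2 fold change 0.05, 95% interval -0.06 to 0.17, edgeR adjusted p = 0.558). Per kilobase, HIF1A stood at 99.5 CPM and EPAS1 at 12.2 CPM in siC1QBP libraries. HIF proteins are controlled mainly by their stability, which RNA counts do not measure. ARNT, the constitutive partner (ENSG00000143437, chromosome 1, 150809705 to 150876768), rose from 37.1, 38.7 and 38.1 CPM in siNC to 48.6, 48.9 and 45.5 CPM in siC1QBP libraries (log2 fold change 0.33, SE 0.06, edgeR adjusted p = 0.00200).

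Among the oxygen sensors, EGLN1 (PHD2), the main HIF prolyl hydroxylase, was at 98.8, 88.3 and 89.7 CPM in siC1QBP libraries and 116, 118 and 118 CPM in siNC (78.5% of control, log2 fold change -0.35, SE 0.05, edgeR adjusted p = 0.000338). EGLN3 (PHD3), a hydroxylase gene that HIF strongly induces, was scarce, at 3.72, 2.88 and 3.36 against 5.38, 5.06 and 4.41 CPM. It fell by 0.57 (SE 0.18, edgeR adjusted p = 0.0374), a call kept only when siC1QBP replicate 1 was the library left out (0.0553 to 0.129 without each of the other 5) and lost with DESeq2 (adjusted p = 0.0942). VHL was at 59.6 ± 1.85 against 56.7 ± 1.15 CPM (SD, n = 3, log2 fold change 0.07, SE 0.06, edgeR adjusted p = 0.425).

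Of 13 other HIF targets, 4 fell, 1 rose and 8 did not pass, beside 7.84% lower and 6.47% higher among all tested genes. DDIT4 (REDD1), an inhibitor of mTORC1, was at 102, 118 and 117 CPM in siC1QBP libraries and 131, 148 and 142 CPM in siNC (log2 fold change -0.32, SE 0.06, edgeR adjusted p = 0.00208). P4HA1, a collagen prolyl hydroxylase subunit, was at 61.0 ± 1.99 against 72.6 ± 0.935 CPM (SD, n = 3) and fell by 0.25 (edgeR adjusted p = 0.00451), while P4HA2 was at 179 ± 4.48 against 183 ± 8.52 CPM (log2 fold change -0.03, edgeR adjusted p = 0.711). Both DDIT4 and P4HA1 passed under each of the 17 alternatives that kept the threshold. DDIT4 shares 41.2% of its exon bases with DDIT4-AS1 on the opposite strand, which had 0 counts.

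VEGFA, the main signal for vessel growth, was at 218, 254 and 269.7 CPM in siC1QBP libraries and 282, 279.9 and 290.0 CPM in siNC. The groups did not overlap, with siC1QBP replicate 1 the lowest (log2 fold change -0.20, SE 0.06, edgeR adjusted p = 0.0343). Without that replicate VEGFA was at -0.12 and passed (edgeR adjusted p = 0.0355). The call was lost without siNC replicate 1 (0.0672), 2 (0.0961) or 3 (0.136), with library size only (0.0771) or upper-quartile scaling (0.0594), and with a filter of 10 CPM (0.0646; edgeR adjusted p throughout). KDM3A, a histone demethylase, was at 68.3, 60.6 and 62.4 against 84.6, 72.7 and 69.1 CPM and fell by 0.24 (SE 0.07, edgeR adjusted p = 0.0309). KDM3A did not pass when siC1QBP replicate 2 (0.111) or 3 (0.0851) or siNC replicate 1 (0.128) or 2 (0.0674) was left out, with library size only (0.0556) and with upper-quartile scaling (0.0543; edgeR adjusted p throughout). Its log2 fold change was -0.16 without siNC replicate 1.

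The carbonic anhydrases CA9 and CA12, membrane enzymes that regulate acid outside the cell, had fold changes of opposite sign. CA12 was at 11.7, 8.60 and 7.93 CPM in siC1QBP libraries and 5.71, 6.80 and 6.54 CPM in siNC and rose (log2 fold change 0.57, SE 0.15, edgeR adjusted p = 0.0204). Its siC1QBP replicate 1 was the highest, and without it the value was 0.37 (edgeR adjusted p = 0.0866). The call was also lost without siNC replicate 1 (0.0759), 2 (0.0511) or 3 (0.0588, edgeR adjusted p). CA9, a widely used hypoxia marker, was barely detected, at 0.889, 1.21 and 1.16 against 1.48, 1.69 and 1.91 CPM. All siC1QBP libraries were below the siNC libraries, and the difference did not pass (log2 fold change -0.64, 95% interval -1.26 to -0.02, edgeR adjusted p = 0.159). CA9 shares 38.5% of its exon bases with ARHGEF39 on the opposite strand.

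PDK1, the kinase that holds pyruvate back from mitochondria, was at 19.4, 19.3 and 16.5 CPM in siC1QBP libraries and 21.8, 21.3 and 23.4 CPM in siNC, and just missed the threshold (log2 fold change -0.27, SE 0.09, edgeR adjusted p = 0.0506; 0.0293 without siC1QBP replicate 1). ANKRD37 was at 2.45, 4.62 and 3.99 against 5.21, 4.86 and 6.92 CPM (log2 fold change -0.62, SE 0.21, edgeR adjusted p = 0.0617). Leaving out 1 siC1QBP library moved ANKRD37 both ways, to -0.40 without replicate 1 (edgeR adjusted p = 0.173) and to -0.81 without replicate 2 (edgeR adjusted p = 0.0340). It shares 35.2% of its exon bases with UFSP2 on the other strand. The vasoactive peptide gene ADM, at 9.85 ± 0.579 against 9.82 ± 0.840 CPM (SD, n = 3), and the stress gene NDRG1, at 37.9 ± 1.42 against 39.6 ± 2.88 CPM, had log2 fold changes of 0.01 and -0.06. The mitophagy receptor BNIP3L was at 90.9 ± 3.95 against 97.0 ± 3.45 CPM and BNIP3 at 1.78 ± 0.636 against 1.64 ± 0.147 CPM (log2 fold change -0.09 and 0.13). BNIP3 is uncertain, since its 39 named pseudogenes held 184 counts and the gene 191.

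**Figure D4:**
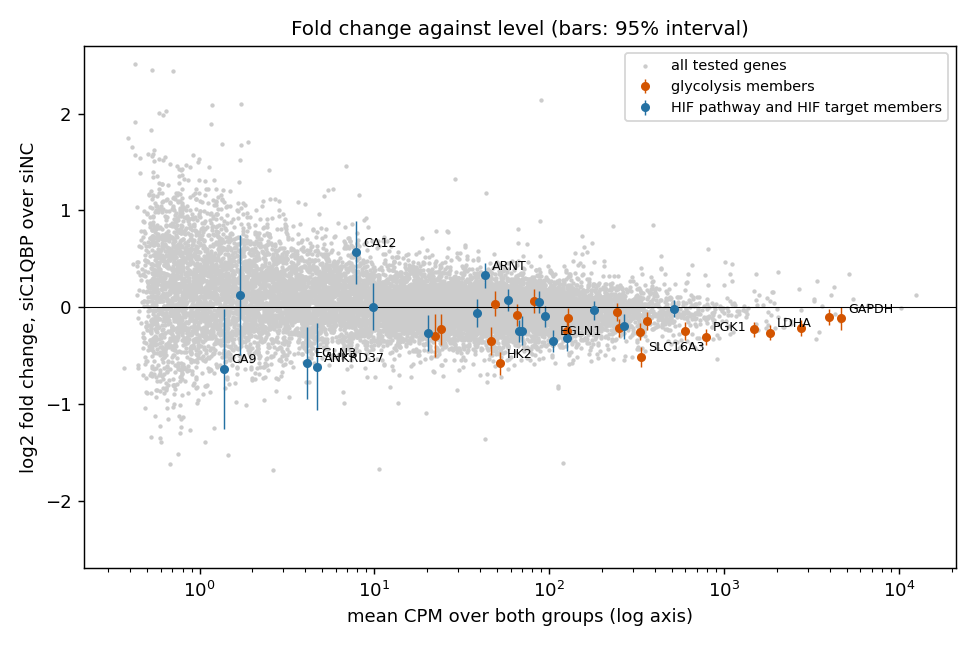
Log2 fold change of siC1QBP over siNC (y axis) against mean CPM (x axis, log axis) for the 15530 tested genes in grey and the 40 tested members in colour, with 95% intervals as bars. Most glycolysis genes lie below 0 at high CPM with short intervals, while CA9, EGLN3 and ANKRD37 lie lower with long ones.

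The HIF core shown above was found both in members that fell and in members that did not. At least 1 match was found in 25 of the 35 tested members with a window, 71.4%, and in 57.2% of 10146 tested genes with one. The members' windows had a median GC content of 70.0%, against 65.2% over all windows. Of the 25 members with a match 11 fell, with a median log2 fold change of -0.24, and of the 10 without a match 6 fell, with a median of -0.22. By set, the medians were -0.23 for 13 glycolysis genes with a match and -0.23 for 7 without. They were -0.25 for 12 HIF genes with a match and -0.03 for only 3 without. Among all tested genes with a window, 570 of 5804 with a match and 334 of 4342 without fell, with medians of -0.02 and 0.01. HK2, PGK1 and DDIT4, which fell, had 3 matches each. ANKRD37, ALDOC and BNIP3, which did not pass, had 3, 5 and 6. The windows of SLC16A3, SLC2A1, TPI1, PGAM1, PFKP and EGLN3, which all fell, held none. These counts describe 250 bases only and say nothing of binding.

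Other genes of both pathways came from lists of 26 and 42 names. Of 15 tested other glycolysis genes 1 fell and 0 rose in edgeR, beside 7.84% lower and 6.47% higher among all tested genes, with a median log2 fold change of 0.00, and 2 were higher at an unadjusted p under 0.05. DESeq2 and limma-voom gave the same counts, 1 and 0. PGM2, a phosphoglucomutase, fell, with 49.6 ± 1.25 CPM after siC1QBP against 58.4 ± 0.616 CPM after siNC (SD, n = 3 each, log2 fold change -0.24, edgeR adjusted p = 0.00884). Of 38 tested other hypoxia genes 9 fell and 2 rose, against the same shares of all tested genes, with a median of -0.07. The falls with the smallest p were ALKBH5, an RNA demethylase (log2 fold change -0.40, SE 0.05), GBE1, the glycogen branching enzyme (-0.36, SE 0.06), STC1, a secreted glycoprotein (-0.39, SE 0.08), and FAM162A (-0.28, SE 0.06). Among the rises was ERO1A, an oxidase of the endoplasmic reticulum (0.19, SE 0.05). The edgeR adjusted p of these 5 genes was 0.000156, 0.000804, 0.00441, 0.00595 and 0.0168.

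Fold changes followed gene length across the table. Tested genes were split by length into 5 bins of 3106. In the bin with the shortest models (median 1428.5 bases) 354 fell and 90 rose, and in the bin with the longest (median 10215.5 bases) 99 fell and 396 rose. Of the 40 tested members, 9 lay in the longest bin, where 4 fell and 0 rose, and 2 lay in the shortest. With each library's length trend removed, 15 of the 21 glycolysis genes and 8 of the 19 HIF genes fell, and the medians over those 21 and 19 genes were -0.24 and -0.13. Over all 15530 genes, 1915 then fell and 769 rose, with a median of -0.03. HK2, SLC16A3, PGK1 and EGLN1 were then at -0.62, -0.58, -0.34 and -0.40, and GPI went from -0.14 to -0.22.

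**Figure D5:**
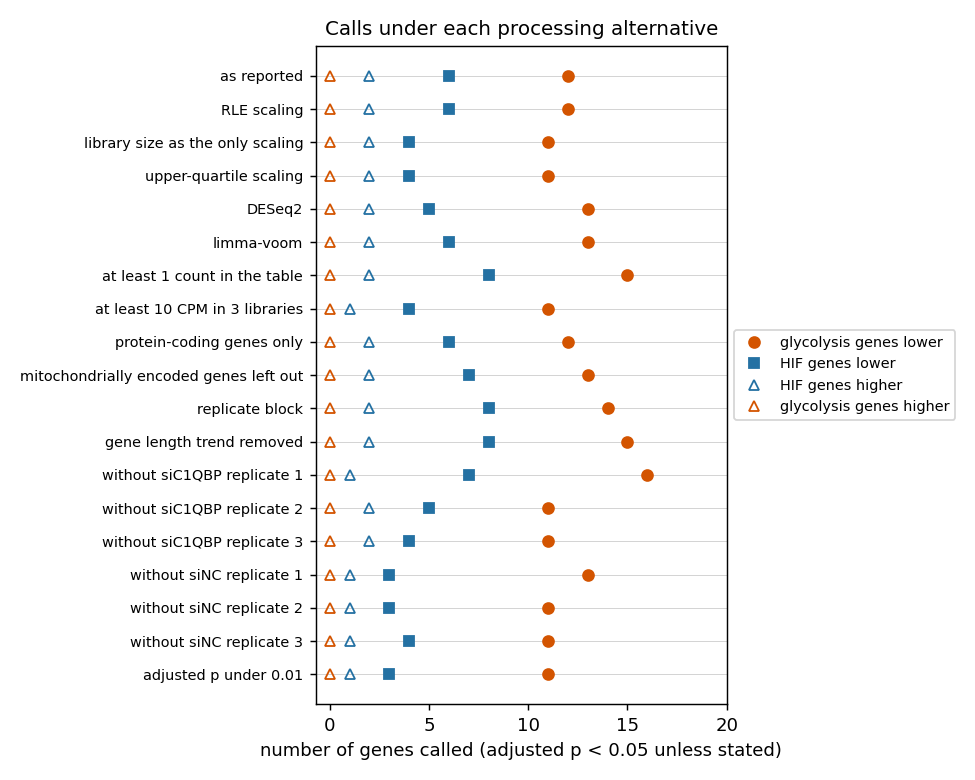
Number of glycolysis and HIF genes called (x axis) under each processing alternative (y axis), lower as filled and higher as open symbols. Between 11 and 16 glycolysis genes were called lower and 0 higher in every alternative shown, and between 3 and 8 HIF genes were called lower.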

How the data were processed

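The table that the authors deposited holds unnormalized read counts of 58735 genes in 6 libraries, and gene lengths. Per the labels, libraries were made with a directional NEBNext kit. Per the submitters' processing notes the build is hg38. Neither aligner nor counting program, nor whether strand was used, is given in the sources used here, so overlapping genes are uncertain. No label says whether replicates came from separate cultures. The p-values therefore cover only the spread of these libraries, which may be technical.

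Differences were tested in edgeR 4.0.16 by quasi-likelihood (R 4.3.3; TMM scaling, filterByExpr, treatment as the only term), with Benjamini-Hochberg adjustment over 15530 genes. Fold changes are siC1QBP over siNC. CPM use TMM-scaled library sizes, and levels per kilobase use the deposited gene lengths, which equalled the GENCODE release 29 exon union for all 41 members. Intervals are 95%. On counts simulated for siC1QBP against siNC over 15530 genes, the test called 43 of 50 genes raised 1.3-fold and 47 of 50 raised 1.5-fold. It also called 50 of 50 raised 2-fold, 42 of 50 lowered to 0.667 of control, and 9 of 15330 left unchanged. The smallest simulated rise had a median log2 fold change of 0.373, and the only simulated fall -0.598. The median over the glycolysis genes was -0.23, so these rates do not show how often changes of that size are called. The rates were not split by expression level and do not cover scarce genes such as CA9 and BNIP3, whose recovery was not tested. The effect of a library like siC1QBP replicate 1 was not tested. All members were named by rule. Of the other pathway genes, up to 4 with the smallest p each way were named, except a gene that is not reported here. The members and lists were chosen with earlier results of these data known. Alternatives were DESeq2 1.42.0, limma-voom (limma 3.58.1), other scalings, filters and gene sets, removal of the length trend, each library left out, and the replicate number as a block. Python 3.11.15 and scipy 1.17.1 were used.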

Additional observations from a re-analysis of the deposited data

How the results depend on the processing

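Of the 20 called members, 15 passed under each of the 17 alternatives that kept the threshold of 0.05 (11 glycolysis and 4 HIF genes), and none of the 20 changed sign. The other 5 were GPI, EGLN3, VEGFA, KDM3A and CA12. Of the 20 that did not pass, 7 passed in at least 1 alternative. Glycolysis genes called lower numbered 11 to 16 with 1 library left out, and 0 rose. HIF genes called lower numbered 3 to 7 and higher 1 to 2 with 1 library left out. With an adjusted p under 0.01, 3 HIF genes fell and 1 rose, and with a filter of 10 CPM, which removed CA12 from the test, 1 rose. Over the whole table, calls went from 2222 to 1057 at 0.01 and to between 1105 and 2583 with 1 library left out. The share of lower calls was 54.8%, against 42.0% with library size only, 42.5% with upper-quartile scaling and 71.3% with the length trend removed. Of the uncalled members, 5 changed sign. HIF1A went to 0.0071, 0.0091 and 0.0038 with library size only, upper-quartile scaling and a filter of 10 CPM, and to between -0.042 and 0.0081 with 1 library left out. ADM went to -0.0035 with DESeq2, to -0.0092 with all genes of at least 1 count, and to between -0.041 and 0.076 with 1 library left out. PFKL and PFKFB4 went to -0.0025 and -0.0078 with the length trend removed, and PFKFB4 lay between -0.0067 and 0.078 and BNIP3 between -0.19 and 0.34 with 1 library left out. The differences in share of ALDOC (-0.47 to 3.34 percentage points), ENO2 (-0.27 to 0.21) and BNIP3L (-0.45 to 0.11) changed sign with 1 library left out. The cause was not tested. The replicate numbers did not clearly pair the samples: correlations of deviations between siC1QBP and siNC libraries were -0.048 to 0.043. Replicates 1 and 2 of siC1QBP correlated best with their own number (0.043 and 0.033). Replicate 3 did not (-0.009, against 0.021 with siNC replicate 2). With the replicate block, 14 glycolysis genes and 8 HIF genes fell, 2 HIF genes rose and 3092 genes were called. Genes under about 5 CPM, such as CA9 and BNIP3, had intervals too wide to show changes of the size seen in abundant members.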
